A study of Homo sapiens with 6 samples.

Results

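The 45 genes described here are part of the DNA replication and nucleotide supply machinery. They encode proteins that license and open origins, copy and join DNA, and make its building blocks. Cyclins and E2F factors that start S phase are among them. The 45 were listed by name out of 30015 genes in the expression table, with earlier results of these data known. All 45 had a mean of at least 10 normalized counts over the 6 libraries and were tested with the 15251 genes that did. The samples were poly(A)-selected RNA from HMV-II, an established line of human mucosal melanoma of vaginal origin, with 3 libraries of cells carrying a control construct (Vector) and 3 of cells in which EZH2 was stably knocked down by short hairpin RNA (shEZH2). The labels give both groups the genotype WT and no drug treatment, so the groups differ by the construct alone as far as the labels say. The data come from 1 cell line, the table's headers name 1 hairpin, and nothing states that the libraries of a group came from separate cultures, so p-values measure the spread between these libraries only, which may be technical.

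Replication is prepared in G1, when the origin recognition complex, CDC6 and CDT1 load the ring-shaped MCM2 to MCM7 helicase onto DNA. At the start of S phase, cyclin E with CDK2 and other kinases activate the helicase by adding CDC45 and the GINS complex. Polymerase alpha with primase then lays down primers, polymerases epsilon and delta extend them on the sliding clamp PCNA, and FEN1 and LIG1 finish the lagging strand. Many of these genes are textbook targets of E2F transcription factors, and their transcripts are most abundant around the start of S phase. EZH2 is the catalytic subunit of Polycomb repressive complex 2, which methylates histone H3 at lysine 27, and EZH2 is itself known as an E2F target.

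EZH2 was counted at 483, 437 and 552 normalized counts in the Vector libraries and at 237, 247 and 225 in the shEZH2 libraries. The shEZH2 libraries were all lower, by 1.04 on the log2 scale in the mean (log2 fold change -1.04, SE 0.14, limma adjusted p = 0.0142), so the knockdown was partial at the RNA level. An exact permutation test on 3 against 3 libraries cannot give a two-sided p below 0.1, which is the value EZH2 gave. Depth ranged from 13400290 to 19128939 counted reads, lowest in Vector replicate 2. That library departed most from the others along gene length, with genes split into 5 classes of length. Its median departure from the mean of the other libraries ran from -0.59 (log2) in the shortest genes to 0.44 in the longest. A smaller trend in the opposite direction was seen in shEZH2 replicate 1, from 0.29 in the shortest genes to -0.23 in the longest. The cells' identity was plain in all 6 libraries: all 10 melanocyte markers had a mean of at least 10, led by PMEL at 48607 to 67512. Summed fibroblast markers were at 176 to 245 in Vector and 250 to 311 in shEZH2, mostly LUM. COL1A2 was at 28.7 to 77.4 over the 6 libraries, and COL1A1, COL3A1, DCN and PDGFRA were near 0. Epithelial markers summed to 1309 to 1722 and 1570 to 1678. KRT18 (713 to 1136), CDH1 (328 to 428) and KRT8 (172 to 228) were clearly counted over the 6 libraries. KRT14 was at 2.09 to 10.5 and EPCAM near 0. Leukocyte markers summed to 6.11 to 32.6 and 13.3 to 16.2, and endothelial markers to 21.4 to 67.5 and 20.05 to 26.4.

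In the knockdown libraries these 45 genes were mostly higher. A gene was called when its limma p was under 0.05 and its difference on log2(normalized count + 1) more than 1.5-fold in either direction, the threshold the study used. By this rule 17 of 45 members rose and 1, RFC1, fell, while over all genes tested 7.55% rose and 7.07% fell. With Benjamini-Hochberg adjustment over all 15251 genes, 9 members had an adjusted p under 0.05, all of them higher: CDT1, MCM3, MCM5, MCM6, RFC2, LIG1, RRM2, TK1 and E2F1. The shares of all genes by that rule were 2.28% higher and 1.84% lower. Leaving out 1 library moved the number of members between 0 (limma without shEZH2 replicate 3, with 23 at an unadjusted p under 0.05) and 28 (without Vector replicate 2). The shares of all genes moved too, to 0.0196% higher and 0.00654% lower without shEZH2 replicate 3, and to 9.92% higher and 9.18% lower without Vector replicate 2. The median log2 fold change of the 45 was 0.48, against 0.04 for all genes tested, and it ranged from -0.61 for RFC1 to 1.67 for MCM6. A log2 fold change above 0 was seen in 41 members, beside 53.5% of all genes. Only POLA1, RFC1, RPA1 and RPA2 were below 0.

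Counted another way, 28 members had every shEZH2 library above every Vector library and 2 (RFC1 and RPA1) had every one below, while 15 overlapped. Over all genes tested those shares were 18.4% and 16.5%. The shift was present in each knockdown library: relative to the Vector mean, the median member stood at 0.46, 0.50 and 0.49 (log2) in shEZH2 replicates 1, 2 and 3, with 39, 41 and 41 members above 0. The same medians were 0.08, -0.11 and 0.06 in the Vector libraries. Whether more cells were in S phase or each cell held more of these transcripts cannot be told apart in bulk RNA.

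**Figure D1:**
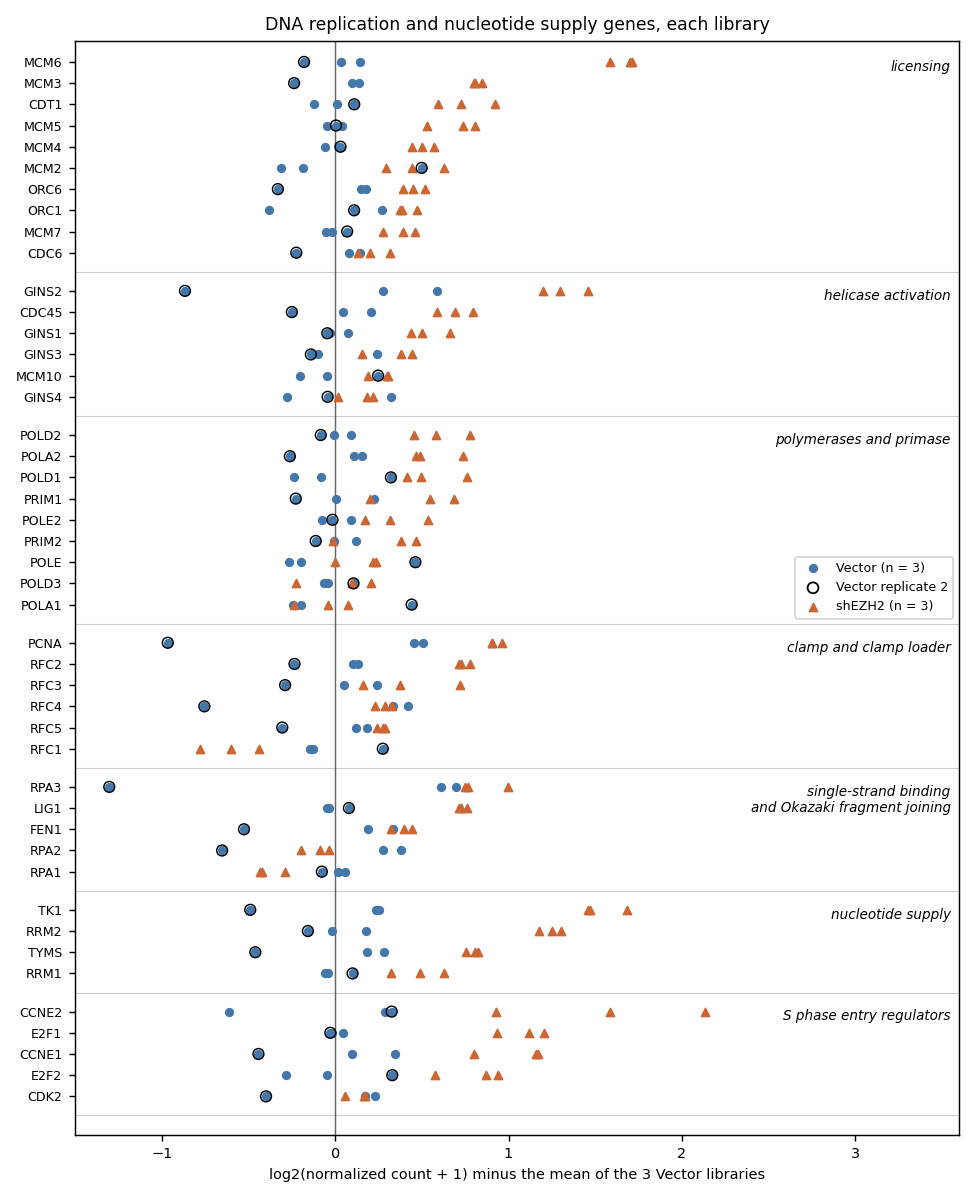
Each point is 1 library's log2(normalized count + 1) for a gene minus the mean of the 3 Vector libraries, with genes grouped by role and sorted within each role by the shEZH2 mean. Circles are Vector, triangles shEZH2, and the open ring marks Vector replicate 2; MCM6, TK1, RRM2, E2F1 and GINS2 have wide gaps between the groups, RFC1 and RPA1 lie to the left, and the ring is the lowest point for PCNA, RPA3 and GINS2.

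Because many members are known E2F targets, their promoters were searched for 4 forms of the E2F site, TTTCCCGC, TTTCGCGC, TTTGCCGC and TTTGGCGC, on both strands, in RefSeq windows (GRCh38.p14) from 250 bases before to 50 after each transcription start. In TTTGGCGCGAAA, 1 form on the plus strand of the window and another on the minus strand overlap and count as 2 matches. Of 37 members in the promoter table, 19 (51.4%) held at least 1 match, against 3.99% of 27305 gene symbols. A match was found in 9 of 15 promoters of members that rose, in 10 of 21 of those not called, and not in the promoter of RFC1. CCAAT, a box common in cell cycle promoters, was in 22 of 37 members (59.5%) and in 39.7% of all symbols. The table had no window for RPA2, RPA3, GINS4, MCM4, MCM5, POLD3, CDK2 and CCNE2. The windows around the matches that lie wholly upstream of the start are shown for the 9 members that rose and have one, with the matched letters in capitals. For windows inside the span the expression table gives the gene, at most 30 bases are shown.
MCM6 (chr2:135876502-135876615, - strand): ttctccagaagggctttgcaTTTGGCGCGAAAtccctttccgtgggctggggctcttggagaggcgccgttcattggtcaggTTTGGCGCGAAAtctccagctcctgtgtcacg
E2F1 (chr20:33686394-33686422, - strand): tttcGCGGCAAAaaggaTTTGGCGCgtaa
E2F2 (chr1:23531248-23531295, - strand): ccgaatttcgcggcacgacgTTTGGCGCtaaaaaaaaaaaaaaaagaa
CDT1 (chr16:88803743-88803772, + strand): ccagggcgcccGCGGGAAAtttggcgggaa
MCM3 (chr6:52284889-52284936, - strand): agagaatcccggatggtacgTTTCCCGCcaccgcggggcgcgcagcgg
GINS2 (chr16:85688967-85688996, - strand): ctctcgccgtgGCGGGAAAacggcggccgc
LIG1 (chr19:48170440-48170469, - strand): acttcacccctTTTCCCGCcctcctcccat
TYMS (chr18:657603-657632, + strand): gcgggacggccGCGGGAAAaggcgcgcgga
PCNA (chr20:5126654-5126701, - strand): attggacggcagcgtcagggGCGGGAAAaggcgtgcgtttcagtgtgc
MCM6, which rose most, carries these 12 letters at 2 places within 114 bases, and E2F1 carries 2 matches within 29 bases. MCM3 has a second match that runs across the start and is not shown. RRM2, TK1, CCNE1, CDC45, RFC2 and POLD2, which also rose, hold none of the 4 forms in their windows. A match is a description of the letters and says nothing of what binds there.

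The licensing factors were higher as a group, with 4 of 10 called and the other 6 above 0 but short of the threshold (median log2 fold change 0.48). MCM6, a subunit of the MCM helicase (chromosome 2, 135839626 to 135876426, minus strand, coordinates as in the expression table), was at 533, 460 and 576 normalized counts in Vector and at 1567, 1711 and 1694 in shEZH2. Every knockdown library was far above every Vector library, a 3.18-fold difference (log2 fold change 1.67, SE 0.14, adjusted p = 0.00317). MCM3 was at 1100, 848 and 1069 in Vector and 1741, 1748 and 1796 in shEZH2. The 3 knockdown libraries nearly coincided and stood well clear of the controls (log2 fold change 0.82, SE 0.14, adjusted p = 0.0276). For MCM5 the counts were 1473, 1437 and 1387 against 2507, 2071 and 2385. Again the groups did not overlap (log2 fold change 0.69, SE 0.13, adjusted p = 0.0338). CDT1, the loading factor that brings the helicase to origins, had 663, 709 and 603 in Vector and 1247, 991 and 1086 in shEZH2. All knockdown libraries were above all controls (log2 fold change 0.75, SE 0.14, adjusted p = 0.0350).

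The remaining licensing genes were closer to the controls. MCM4 and MCM7 had log2 fold changes of 0.50 and 0.38 and groups that did not overlap, yet both were under the size limit. With the length trend removed, MCM4 passed the threshold (0.59). ORC1 and ORC6, subunits of the origin recognition complex, were at 0.41 and 0.45. CDC6, the partner of CDT1 and the least changed of the group, was at 862, 699 and 903 in Vector and 895, 938 and 1016 in shEZH2. Its groups overlapped (log2 fold change 0.22, SE 0.15, adjusted p = 0.402). MCM2 was at 285, 460 and 262 in Vector and 504, 399 and 442 in shEZH2. Only Vector replicate 2 reached the knockdown level. The log2 fold change was 0.45 with that library and 0.70 without it, when MCM2 passed the threshold.

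Per kilobase of gene length, the 6 helicase subunits were far from equal in the controls, although they form a ring with 1 copy of each. MCM7 was highest at 946 normalized counts per kb and MCM2 lowest at 68.5 per kb, a ratio of 13.8 that was 13.4 in shEZH2. MCM6 moved from 127 to 402 normalized counts per kb. It was the second lowest of the 6 in Vector and the third highest in shEZH2. The lengths are those the expression table gives for each gene, which need not be those of the transcripts these cells make.

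**Figure D2:**
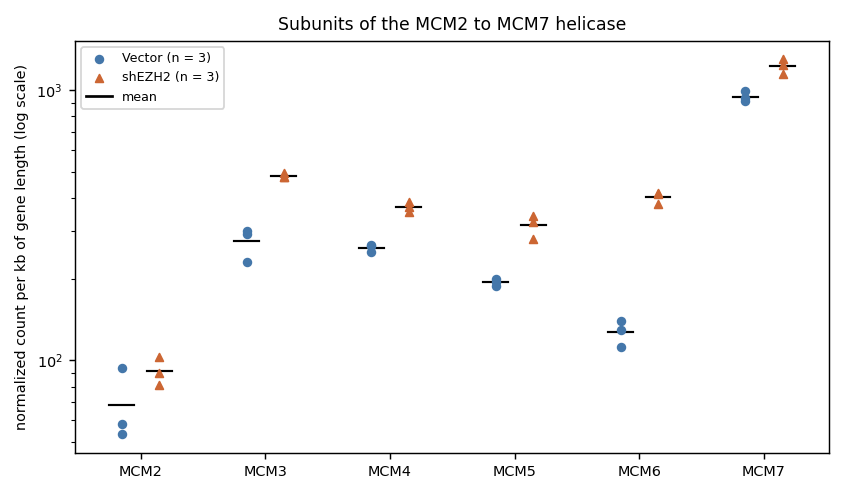
Normalized counts per kb of gene length (log axis) of MCM2 to MCM7 in each library, circles for Vector and triangles for shEZH2, with black lines at the means. The mean of MCM6 rises from 127 to 402 per kb, while MCM2 stays lowest and MCM7 highest in both groups.

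Of 6 helicase activation genes, GINS2 and CDC45 rose, and the median log2 fold change was 0.43. GINS2, a subunit of the 4-protein GINS complex, was at 197, 88.5 and 244 normalized counts in Vector and at 448, 374 and 400 in shEZH2. Vector replicate 2 was the low outlying value, but the other controls were also below every knockdown library. The log2 fold change was 1.32 (SE 0.35, adjusted p = 0.0819), and 0.89 without that library. CDC45, which joins MCM and GINS in the active helicase, was at 366, 267 and 327 against 551, 513 and 477. The groups were apart (log2 fold change 0.69, SE 0.16, adjusted p = 0.0594). Without Vector replicate 2 the value was 0.57 and with the length trend removed 0.52, both under the limit. GINS4 differed least, with 86.8, 102 and 132 in Vector and 120, 107 and 123 in shEZH2. Its values were interleaved (log2 fold change 0.14, SE 0.20, adjusted p = 0.686). GINS1, GINS3 and MCM10, the last a helicase-binding factor needed for origin firing, were at 0.53, 0.32 and 0.26, none past the threshold.

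Of 9 polymerase and primase genes, only POLD2 was called, and the median log2 fold change was 0.34. POLD2, the second subunit of polymerase delta, was at 1645, 1458 and 1534 normalized counts in Vector and 2644, 2115 and 2315 in shEZH2. The groups were apart (log2 fold change 0.60, SE 0.14, adjusted p = 0.0576). The call was lost without Vector replicate 2 (0.56), without shEZH2 replicate 1 and with the length trend removed (0.50). POLD1, the catalytic subunit of polymerase delta, and POLA2, the second subunit of polymerase alpha, were both at 0.56 with groups that did not overlap. Both passed the threshold without shEZH2 replicate 2 or 3, POLA2 also without Vector replicate 1 or 3 and with the length trend removed, and POLD1 also without Vector replicate 2 (0.72). POLD3, an accessory subunit, was at 199, 224 and 202 in Vector and 177, 222 and 240 in shEZH2. Its knockdown values lay on both sides of the controls (log2 fold change 0.02, SE 0.17, adjusted p = 0.941). The catalytic subunits POLE and POLA1 were at 0.15 and -0.07, with Vector replicate 2 the highest of the 6 libraries for both. PRIM1 and PRIM2, which make up primase, were at 0.48 and 0.28, and POLE2 at 0.34. PRIM1 passed the threshold without Vector replicate 1 (0.59) and without shEZH2 replicate 1 (0.62).

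Within the clamp and its loader the members went in different directions. PCNA, the sliding clamp, was at 1250, 466 and 1295 normalized counts in Vector and at 1707, 1772 and 1704 in shEZH2. It passed the threshold (log2 fold change 0.92, SE 0.37, adjusted p = 0.191), but Vector replicate 2 was far below the other controls, and without it the value was 0.44. The call was also lost without any 1 of the shEZH2 libraries and in edgeR. RFC1, the large subunit of the clamp loader, was at 1667, 2234 and 1690 in Vector and at 1075, 1362 and 1218 in shEZH2. All 3 knockdown libraries were below all controls, and it was the only member to fall (log2 fold change -0.61, SE 0.17, adjusted p = 0.0906). Without Vector replicate 2, its highest library, the value was -0.47 and no longer past the threshold. The call was also lost without shEZH2 replicate 1 and with the length trend removed (-0.53). RFC2, one of the small loader subunits, was at 519, 402 and 507 against 776, 811 and 782. The knockdown libraries lay close together above the controls (log2 fold change 0.74, SE 0.15, adjusted p = 0.0374). With the length trend removed the value was 0.51, under the limit. RFC5, the member of this group with the smallest difference, was at 518, 385 and 542 against 564, 577 and 582. Its groups did not overlap, but the gap was narrow (log2 fold change 0.27, SE 0.16, adjusted p = 0.355). RFC3 and RFC4 were at 0.42 and 0.28.

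For single-strand binding and fragment joining, LIG1 was the 1 gene of 5 that rose. LIG1, the ligase that seals Okazaki fragments, was at 248, 270 and 249 normalized counts in Vector and 420, 433 and 423 in shEZH2. Replicates were tight in both groups (log2 fold change 0.73, SE 0.13, adjusted p = 0.0267). None of the 3 subunits of RPA, which coats single-stranded DNA, was called in limma with all libraries. RPA1 was at 1241, 1162 and 1276 in Vector and 914, 906 and 1003 in shEZH2. The knockdown libraries were all lower, by less than the size limit (log2 fold change -0.38, SE 0.12, limma adjusted p = 0.128). RPA2 had 1192, 583 and 1109 against 862, 801 and 895. Its log2 fold change was -0.11 with all libraries (SE 0.27, adjusted p = 0.826) and -0.43 without Vector replicate 2, which was the lowest of the 6. RPA3 had 287, 71.0 and 270 against 354, 298 and 301. Vector replicate 2 was again far the lowest, and the log2 fold change was 0.84 with it (SE 0.50, adjusted p = 0.343) and 0.19 without it. RPA3 passed the threshold without Vector replicate 1 (1.19). FEN1, the flap nuclease, was at 0.39 and was not called.

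The enzymes of nucleotide supply rose in 3 of 4 cases, with a median log2 fold change of 1.02. TK1, the S phase thymidine kinase, was at 519, 310 and 513 normalized counts in Vector and at 1398, 1198 and 1206 in shEZH2. The groups were far apart, by 2.90-fold (log2 fold change 1.54, SE 0.22, adjusted p = 0.0158). RRM2, the regulated subunit of ribonucleotide reductase, was at 617, 489 and 538 against 1235, 1348 and 1297. This was a 2.37-fold rise with little spread (log2 fold change 1.24, SE 0.14, adjusted p = 0.00805). Its partner RRM1, the large subunit, was at 1327, 1465 and 1311 against 1708, 2110 and 1920. RRM1 was higher in all knockdown libraries but under the size limit (log2 fold change 0.48, SE 0.14, adjusted p = 0.0957). Per kb, the ratio of RRM1 to RRM2 was 2.74 to 3.82 in the Vector libraries and 1.76 to 1.99 in the shEZH2 libraries, with no overlap. TYMS, thymidylate synthase, was at 253, 162 and 271 against 377, 395 and 391. It was called (log2 fold change 0.80, SE 0.21, adjusted p = 0.0812), with a value of 0.57 without Vector replicate 2.

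Among the regulators of S phase entry, E2F1, E2F2, CCNE1 and CCNE2 rose and CDK2 did not pass, with a median log2 fold change of 1.04. E2F1, an activating E2F factor, was at 810, 771 and 777 normalized counts in Vector and at 1813, 1501 and 1706 in shEZH2. This was a 2.12-fold rise, beyond any spread between replicates (log2 fold change 1.09, SE 0.13, adjusted p = 0.00984). E2F2, a related activator, was at 121, 186 and 144 against 221, 272 and 285. The groups were apart (log2 fold change 0.79, SE 0.20, adjusted p = 0.0761), and the value without Vector replicate 2 was 0.96. CCNE1, cyclin E1, was at 141, 81.5 and 119 against 251, 194 and 249. Every knockdown library was above the highest control (log2 fold change 1.04, SE 0.24, adjusted p = 0.0544). CCNE2, cyclin E2, was the lowest-counted member, at 10.5, 21.0 and 20.4 against 32.4, 75.9 and 51.6. Its knockdown values were all higher and more spread out than those of other members (log2 fold change 1.55, SE 0.40, adjusted p = 0.0789). INTS8, on the opposite strand, overlaps 1977 bases of CCNE2 with a mean of 679 normalized counts against 35.3. NDUFAF6, also on the opposite strand, overlaps 912 bases of CCNE2 with a mean of 178. Reads of either could be counted to CCNE2, or the reverse, if the counting ignored strand. CDK2, the kinase partner of cyclin E, was at 8738, 5894 and 9104 against 8088, 8736 and 8722. Its groups overlapped (log2 fold change 0.13, SE 0.20, adjusted p = 0.699).

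CDK2 needs the same reservation. Its listed span of 6016 bases lies wholly within that of PMEL, a pigment gene read from the opposite strand. PMEL averaged 58732 normalized counts over the 6 libraries and CDK2 averaged 8214. Whether the counting used strand is not given in the sources used here, so the level of CDK2 cannot be told apart from reads of PMEL. In all, 22 members overlap another listed gene, and for 12 of them the partner had at least 10% of the member's mean. MCM2, GINS2, RFC4 and PRIM1 share only short ends (45, 7, 21 and 33 bases) with their most abundant partners. The listed span of FEN1 shares 4265 bases with FADS2 on the same strand (means of 1013 and 472 normalized counts). On opposite strands, RPA3 shares 77897 bases with UMAD1 (263 and 206), and RFC5 shares 437 bases with WSB2 (528 and 2406). Processed copies of members such as PCNA and RRM2 lie elsewhere in the genome, and how reads that match both were counted is not given either.

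Vector replicate 2 touched the members according to their length. In the 23 members of at most the median length of 4118 bases, it was the lowest of the 6 libraries for 20, with a median of -0.44 (log2) against the other 2 controls. In the 22 longer members it was the highest Vector library for 13 and the lowest Vector library for 7, with a median of 0.11. It was the lowest of the 6 libraries for 6 of these longer members. The extremes were RPA3 at -1.95 and MCM2 at 0.75. Without this library 15 members rose and none fell, beside 7.15% and 5.61% of 15123 genes tested, and the median log2 fold change was 0.44. An adjusted p under 0.05 was then reached by 25 members that were higher and 3 that were lower (RFC1, RPA1 and RPA2), beside 9.92% and 9.18% of all genes. CDC45, POLD2, PCNA, TYMS and RFC1 lost their calls and MCM2 and POLD1 gained one. With the trend along gene length removed from each library, the median was 0.46. CDC45, POLD2, RFC2 and RFC1 then lost their calls, and MCM4 and POLA2 gained one.

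**Figure D3:**
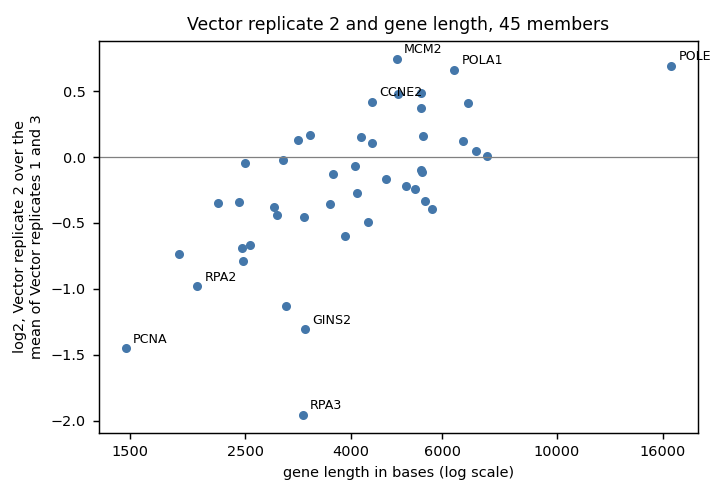
For each of the 45 members, the log2 ratio of Vector replicate 2 to the mean of Vector replicates 1 and 3 is plotted against gene length in bases (log axis). Points below 0 gather at short lengths, with a median of -0.44 up to 4118 bases, and RPA3 is lowest at -1.95.

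**Figure D4:**
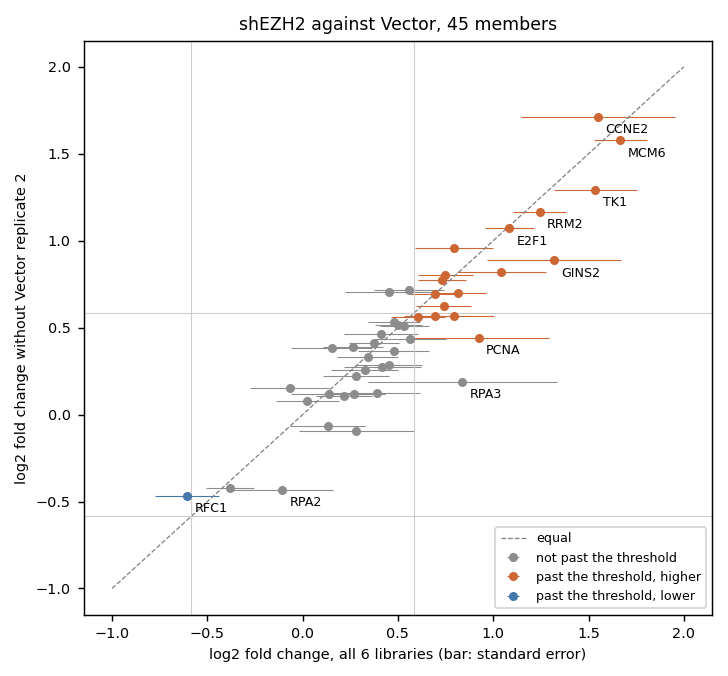
The log2 fold change of each member without Vector replicate 2 is plotted against the value from all 6 libraries, with standard errors as horizontal bars, grey lines at the size limit and a dashed line of equality. MCM6, RRM2 and E2F1 lie near the line, PCNA, RPA3 and GINS2 lie well below it, and RFC1 moves from -0.61 to -0.47.

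Other genes of the same processes, taken from lists by function, were counted in the same way, and no test compared these lists with the members. Of 20 other origin and fork genes none rose and 1 fell, with a median log2 fold change of -0.01. The 1 was MCM9, a helicase of homologous recombination (-0.60, SE 0.23, adjusted p = 0.183), which lost its call without Vector replicate 2 (-0.39) and without shEZH2 replicate 1 or 3. CLSPN, the checkpoint mediator claspin, was at -0.62 and DBF4B, an activator of the CDC7 kinase, at -0.28, neither called. Of 16 other polymerase, clamp and Okazaki genes tested (18 listed), PCLAF, a PCNA-binding protein, rose (1.38, SE 0.34, adjusted p = 0.0711). ATAD5, which unloads PCNA, fell (-0.88, SE 0.24, adjusted p = 0.0828). DSCC1, of an alternative clamp loader, was at 0.57 and not called. The median of that list was 0.10.

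Nucleotide supply outside the 45 added 4 genes that rose and none that fell, out of 28 tested (29 listed), with a median log2 fold change of 0.16. Among them were SHMT1 (log2 fold change 0.83, SE 0.17, adjusted p = 0.0416) and MTHFD2 (0.79, SE 0.17, adjusted p = 0.0457), enzymes that carry carbon units on folate. DUT, which makes the dUMP that TYMS methylates, also rose and is named after its values were seen. It stood at 1.09 (adjusted p = 0.137) with all libraries and 0.62 without Vector replicate 2, and lost its call without shEZH2 replicate 1. Of 16 other S phase regulators, 3 rose and none fell, with a median of 0.07. They were E2F8, a repressor E2F (1.03, SE 0.19, adjusted p = 0.0289), CDC25A, the phosphatase that activates CDK2 (0.77, SE 0.16, adjusted p = 0.0422), and TFDP1, the dimer partner of E2F factors (0.84, SE 0.19, adjusted p = 0.0528).

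None of 7 CDK inhibitor genes was called by limma, with 1 at an unadjusted p under 0.05. That gene was CDKN2B, at -0.58 (adjusted p = 0.0799), just under the size limit, and both edgeR and DESeq2 called it lower, as did limma without Vector replicate 2 (-0.69) and without shEZH2 replicate 1 or 2. CDKN2C and CDKN2D were at 0.47 and 0.92, not called. Of 9 genes of chromatin assembly at the fork, 2 rose and none fell, with a median of 0.36. CHAF1B, a subunit of the histone chaperone CAF-1, was at 0.75 (SE 0.15, adjusted p = 0.0367), and UHRF1, which recruits DNA methyltransferase to new DNA, at 0.76 (SE 0.18, adjusted p = 0.0594). CHAF1A, another CAF-1 subunit, was at 0.36 and not called.

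The 18 mitosis genes, which peak later in the cycle, had a median log2 fold change of 0.04, with none higher and 3 lower. CENPE, a kinetochore motor, was at 704, 982 and 548 normalized counts in Vector and 230, 153 and 182 in shEZH2 (log2 fold change -1.96, SE 0.25, adjusted p = 0.0111). CENPF, a kinetochore protein, was at 3709, 6582 and 3632 against 1726, 1726 and 1642 (-1.39, SE 0.24, adjusted p = 0.0254). MKI67, the Ki-67 antigen, was at 1207, 3300 and 1260 against 696, 956 and 938, with -1.002 (SE 0.38, adjusted p = 0.174) and -0.53 without Vector replicate 2, its highest library. Its call was also lost without any 1 of the shEZH2 libraries. These 3 have gene lengths of 9444, 11690 and 12807 bases, longer than 44 of the 45 members. CENPE and CENPF kept their calls without Vector replicate 2, at -1.74 and -1.11. In the longest of the 5 length classes the median gene departed by 0.44 in Vector replicate 2 and by -0.23 in shEZH2 replicate 1.

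**Figure D5:**
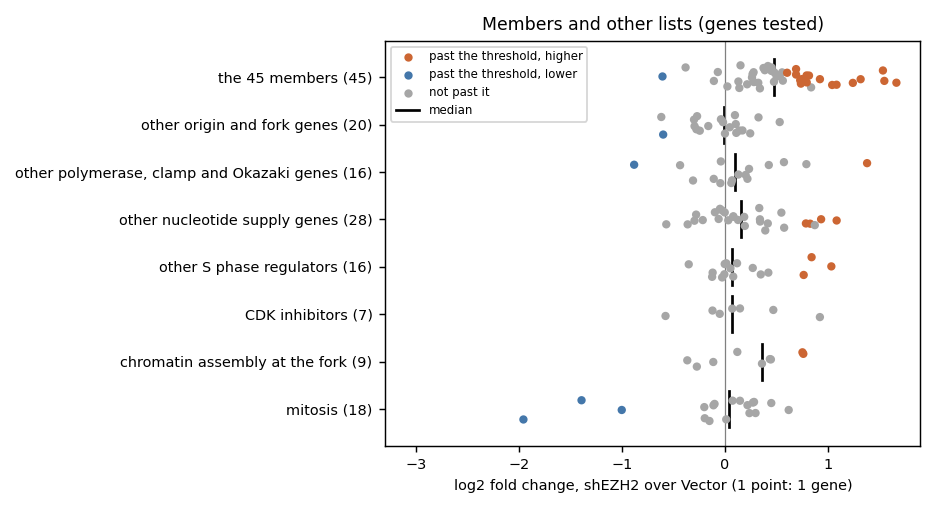
Each point is the log2 fold change of 1 gene between shEZH2 and Vector, with a row for the 45 members and each other list, black lines at the medians, and colour for genes past the threshold. The members' median is 0.48 and those of the other lists lie between -0.01 and 0.36, with CENPE at -1.96 the lowest point.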

How the data were processed

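RNA-seq libraries of HMV-II cells (3 Vector, 3 shEZH2) were analysed from 1 deposited table of normalized counts, read counts per gene divided by a size factor per library. Per the labels, the authors counted reads with featureCounts v1.5.0-p3, and the submitters' processing notes name DESeq2 1.20.0 and hg19. The gene ends in the table match GRCh38 (29.4% of 20614 genes identical, 0.524% for GRCh37), so the table's coordinates are given as GRCh38. Multiplying the deposited signal by the recovered size factors gave whole reads for 100% of values (tolerance 0.02). The table's own fold changes and p-values were not used. Limma 3.58.1 (lmFit, eBayes with trend, R 4.3.3) was run on log2(normalized count + 1) for genes with a mean of at least 10, with Benjamini-Hochberg adjustment. The pseudocount makes fold changes of low genes smaller. Alternatives were edgeR 4.0.16 and DESeq2 1.42.0 on the recovered reads, and the settings of the closing section. Scripts were tested on simulated data, in which 200 of 15251 genes were changed 2-fold. The call threshold recovered 88% of these changes, and a limma adjusted p under 0.05 recovered 6%.

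The 45 members and all other lists were chosen with earlier results of these data known. All members are described by role. Values in every library are given for those called and for the largest and smallest change in each role. Of each other list up to 3 genes of smallest p, or up to 5 with adjusted p under 0.05, are named. Same-numbered libraries did not pair (Pearson r of deviations across genes 0.28, 0.22 and -0.11 for replicates 1, 2 and 3). Protein sequences were not used here. A gene of the other nucleotide supply list is counted but not reported here.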

Additional observations from a re-analysis of the deposited data

How the results depend on the processing

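Over 18 alternatives the 45 members gave 809 log2 fold changes, of which 752 kept their direction and side of the threshold. The median of the members stayed between 0.44 and 0.53 and EZH2 between -1.12 and -0.96. Of the 18 calls, 12 held in each of the 16 other fits that tested the gene (CCNE2 was left out at a mean of at least 50); PCNA lost its call in 5, POLD2 and RFC1 in 3 each, CDC45 in 2, and RFC2 and TYMS in 1 each. The number that rose was 16 to 17 in other fits of all 6 libraries and 15 to 20 when leaving out 1 library, but 9 when the adjusted p replaced p and 7 at a log2 limit of 1. The number that fell was 0 under both of these and with the length trend removed, and 0 to 1 when leaving out 1 library (0 without Vector replicate 2 and without shEZH2 replicate 1). Members with an adjusted p under 0.05 were 9 by limma, 10 by edgeR, 20 by DESeq2, 17 with the length trend removed, and 0 to 28 when leaving out 1 library: 4 without Vector replicate 1 or 3, 28 without Vector replicate 2, 1 without shEZH2 replicate 1 or 2, and 0 without shEZH2 replicate 3. Shares of all genes at an adjusted p under 0.05 were worked out only for limma with all libraries, without Vector replicate 2 and without shEZH2 replicate 3. In the other settings the share of all genes may have moved too, so these counts are not read as a result about the members. Direction reversed when leaving out 1 library for POLA1 (-0.19 to 0.15), POLD3 (-0.0662 to 0.15), RFC4 (-0.10 to 0.49), RPA2 (-0.43 to 0.0823) and CDK2 (-0.0678 to 0.25). With the replicate block, 17 members rose, 1 fell, 7 had an adjusted p under 0.05 and the median was 0.48; the causes of these differences were not tested.

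The 3 libraries a group limit precision, since no single-gene exact test can reach 0.05, and at these depths CCNE2, with 10.5 to 75.9 normalized counts, has the largest counting error of the members; the largest standard error between libraries was that of RPA3 (0.50).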
